A study of Homo sapiens with 6 samples.

Results

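The 9 genes described here encode MHC class I molecules and the machinery that loads them with peptide, out of 63677 genes in the deposited count table. They are the heavy chain genes HLA-B, HLA-C, HLA-E and HLA-F, the light chain gene B2M, the peptide transporter genes TAP1 and TAP2, the tapasin gene TAPBP, and the class I transactivator gene NLRC5. Members were taken by symbol through their Ensembl identifiers, and for the HLA genes only the copy on the primary assembly of chromosome 6 was used. Their RNA was measured in RPMI8226, a human multiple myeloma line (a cancer of plasma cells), labelled WT. Treatment lasted 6 hr, with GST-PTR1 or GST alone as the negative control, each at 100 nM and each in 3 biological replicates. In GST-PTR1, glutathione S-transferase carries the PTR1 domain of HAPLN1, a link protein of the extracellular matrix. The comparison asks which transcripts of myeloma cells change when they meet this domain. All libraries come from a single cell line at a single dose and time, so these values describe RPMI8226 cells at 6 hr and no other setting.

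Class I molecules display peptides from the cell's own proteins to CD8 T cells and to natural killer cells. A polymorphic heavy chain pairs with β2-microglobulin in the endoplasmic reticulum, where the TAP1 and TAP2 subunits pump in peptides that the proteasome has cut from cytosolic proteins. Tapasin bridges the transporter and the empty heavy chain and helps to select peptides that bind tightly. Promoters of these genes respond to interferon through interferon regulatory factors, to NF-κB, and to NLRC5 bound to the RFX, CREB and NF-Y factors.

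Library totals were 15202503, 20077280 and 23453473 counts for GST and 22874133, 28837431 and 44688737 for GST-PTR1. Every set of 3 values given here follows that order of rising total. Levels within a gene are given as CPM, counts per 1000000 counts of a library size scaled by the trimmed mean of M values (TMM), and differences as log2 fold changes from edgeR's quasi-likelihood test. On that scale 3 counts correspond to 0.0761 to 0.180 CPM, well under the level of any of the 9 genes, whose lowest count in a library was 491. A gene was called changed when its p-value, adjusted by the Benjamini-Hochberg method over the 16926 genes that passed the filter on low counts, was under 0.05. Of all tested genes, 9.15% were called higher and 11.4% lower with GST-PTR1, and the calls that were higher made up 44.4%. On unscaled library totals the median log2 fold change of all tested genes moved from 0.01 to -0.19, and higher calls made up 19.6%. All 8 plasma cell markers examined were detected, and their summed level was 1952 to 2440 CPM with GST and 2009 to 2205 CPM with GST-PTR1, with 3 of them called higher and 3 lower. Summed markers of T cells reached at most 5.29 CPM, those of myeloid cells 1.5 CPM, of erythroid cells 2.92 CPM, of B cells 2.56 CPM and of stromal cells 0.521 CPM. CD2, COL1A2 and LUM had no count in any library. In bulk RNA, a change in the number of cells that carry a transcript and a change in RNA per cell cannot be told apart.

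All 9 genes passed the filter. With GST-PTR1, 7 of the 9 were called higher and none was called lower, beside 9.15% of all tested genes called higher. The 9 members were chosen with earlier results of these data known, so that share is given for reference only. Their median log2 fold change was 0.48, and the median of all tested genes was 0.01. TAP1 had the highest value of the 9, a log2 fold change of 1.11, and TAPBP the lowest, 0.31. B2M and TAPBP were not called. TAP1 was also the single member past a 2-fold change with a call, a threshold that 3.68% of all tested genes met on the higher side. On the TMM scale, every GST-PTR1 library lay above every GST library for all 9 genes, as it did for 19.2% of all tested genes. On unscaled totals this held for 4 of the 9 (HLA-B, HLA-C, HLA-E and TAP1) and for 8.71% of all tested genes.

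**Figure D1:**
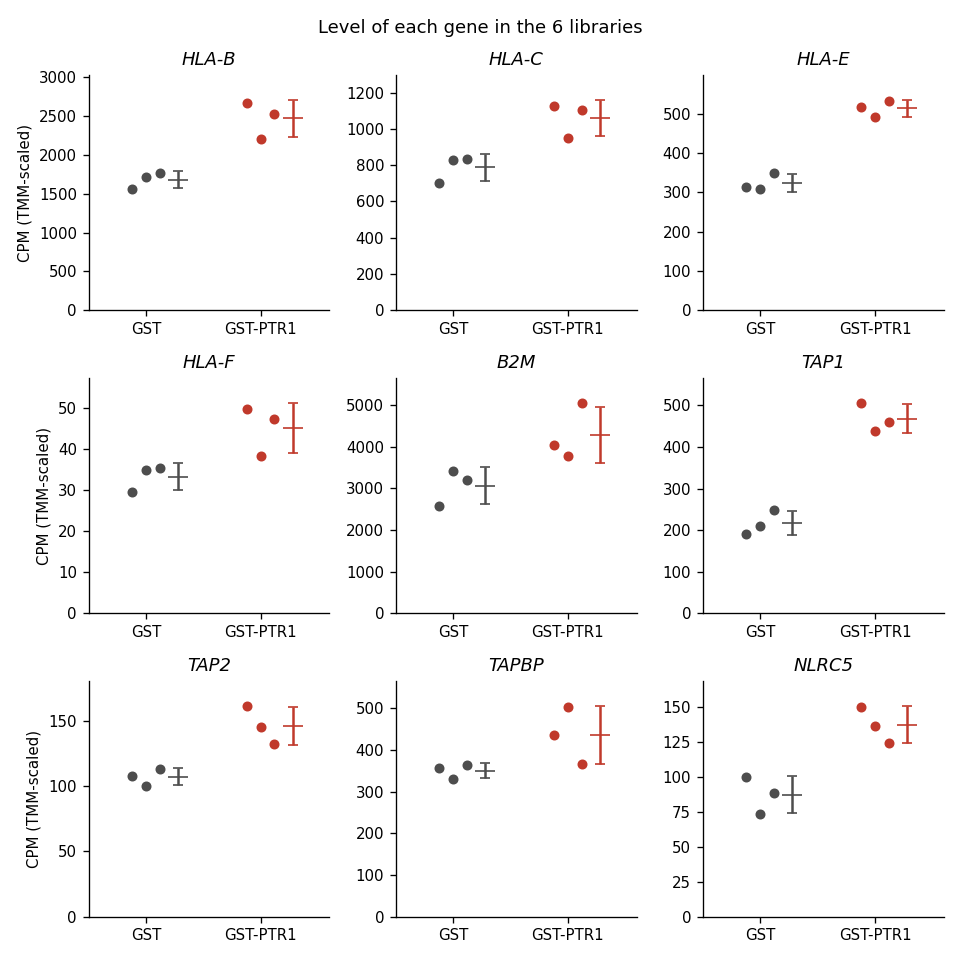
CPM of each of the 9 genes in the 6 libraries (points, in order of rising library total within each treatment), with the mean and SD of 3 libraries beside them and axes that start at 0. TAP1 shows the widest gap relative to its level, from 190.2 to 249 CPM with GST to between 438 and 505 CPM with GST-PTR1, while the TAPBP values of 363 CPM (highest GST library) and 365 CPM (lowest GST-PTR1 library) nearly touch.

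Promoter sequences are shown for the 5 members whose promoter held the NF-κB consensus, since NF-κB and interferon response motifs are the features these promoters are best known for. They come from RefSeq (GRCh38.p14), read 5′ to 3′ on the strand of the gene, and cover the 250 bases before the annotated start site. Position -1 is the base just before that site. Capitals mark matches to the NF-κB consensus or to the core of the interferon-stimulated response element (ISRE), searched as GAAANNGAA on both strands.
HLA-B, chr6:31357180-31357429, minus strand: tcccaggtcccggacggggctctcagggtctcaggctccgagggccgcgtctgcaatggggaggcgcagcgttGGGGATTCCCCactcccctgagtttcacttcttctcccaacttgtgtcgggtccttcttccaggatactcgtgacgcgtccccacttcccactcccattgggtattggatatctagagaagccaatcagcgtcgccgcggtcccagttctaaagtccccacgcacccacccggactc
HLA-C, chr6:31272093-31272342, minus strand: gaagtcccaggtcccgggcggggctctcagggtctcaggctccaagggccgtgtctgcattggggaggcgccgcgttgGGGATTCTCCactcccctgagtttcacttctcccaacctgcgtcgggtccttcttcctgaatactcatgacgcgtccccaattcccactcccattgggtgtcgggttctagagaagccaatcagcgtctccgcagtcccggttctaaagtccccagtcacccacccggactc
B2M, chr15:44711267-44711516, plus strand: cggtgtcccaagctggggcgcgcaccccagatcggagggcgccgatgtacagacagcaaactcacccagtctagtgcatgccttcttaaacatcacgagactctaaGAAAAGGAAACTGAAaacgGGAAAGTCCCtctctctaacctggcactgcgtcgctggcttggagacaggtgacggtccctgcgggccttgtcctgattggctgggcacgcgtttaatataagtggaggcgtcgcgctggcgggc
TAP1, chr6:32853705-32853954, minus strand: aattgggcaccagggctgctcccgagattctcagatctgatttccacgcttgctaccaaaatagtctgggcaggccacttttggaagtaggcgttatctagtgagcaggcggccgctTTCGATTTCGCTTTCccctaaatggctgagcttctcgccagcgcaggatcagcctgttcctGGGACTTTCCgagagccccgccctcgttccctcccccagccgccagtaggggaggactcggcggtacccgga
TAPBP, chr6:33314079-33314328, minus strand: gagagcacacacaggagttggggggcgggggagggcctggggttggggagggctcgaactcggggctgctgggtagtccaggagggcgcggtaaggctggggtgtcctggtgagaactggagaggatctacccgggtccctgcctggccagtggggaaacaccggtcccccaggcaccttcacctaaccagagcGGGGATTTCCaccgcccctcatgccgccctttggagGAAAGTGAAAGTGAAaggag

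HLA-B and HLA-C carry the NF-κB match at nearly the same distance from the start. In HLA-B, 2 overlapping matches run from -177 to -168 and from -176 to -167, and in HLA-C 1 match runs from -172 to -163. B2M has 2 overlapping ISRE core matches, from -144 to -136 and from -138 to -130, followed by the NF-κB consensus on the other strand from -125 to -116. TAP1 has 2 overlapping ISRE core matches on the other strand, from -133 to -125 and from -127 to -119, and the NF-κB consensus from -72 to -63. In TAPBP the NF-κB match lies from -56 to -47 and 2 overlapping ISRE core matches lie close to the start, from -20 to -12 and from -14 to -6.

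Promoters of 7 of the 9 genes were in the table (TAP1 with 2 start sites), and HLA-E and NLRC5 were not. The NF-κB consensus was found in 5 of these 7 genes, or 5 of their 8 promoters, and in 9.96% of all 35116 promoters in the table. The ISRE core was also found in 5 of 7 genes (B2M, HLA-F, TAP1, TAP2 and TAPBP) and 5 of 8 promoters, against 6.88% of all promoters. The CCAAT box (CCAAT), which NF-Y binds, was in 5 of 7 genes and 5 of 8 promoters, against 32.0%. A short interferon regulatory factor motif (GAAAGT), held by 11.4% of all promoters, was in B2M, TAP1 and TAPBP, each time inside an NF-κB or ISRE core match. No member promoter held TGACGT, the short cyclic AMP response element, which 7.10% of promoters did. A match is a run of letters and not evidence of binding. Variants of each pattern were not searched, so lack of a match does not show that an element is absent.

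Among the heavy chains, HLA-B and HLA-C encode classical molecules that present peptides to CD8 T cells. HLA-B (ENSG00000234745, chr6:31321649-31324965 in GRCh37) measured 1563, 1720 and 1767 CPM with GST and 2675, 2209 and 2529 CPM with GST-PTR1. The highest GST library stayed 442 CPM under the lowest GST-PTR1 library. HLA-B rose 1.47-fold, or 0.55 ± 0.13 on the log2 scale (estimate ± standard error, adjusted p = 0.0107 in edgeR's test).

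HLA-C (ENSG00000204525, chr6:31236526-31239907) measured 703, 829.8 and 832 CPM with GST and 1129, 949 and 1107 CPM with GST-PTR1. Both treatments had 1 library set apart below the others, the GST library of 15202503 counts and the GST-PTR1 library of 28837431 counts. HLA-C rose 1.35-fold, or 0.43 ± 0.12 on the log2 scale (estimate ± standard error, adjusted p = 0.0319 in edgeR's test). That call was lost in 5 of the 6 fits that left out 1 library. Over the 6 fits its log2 fold change ranged from 0.35 to 0.51 and its adjusted p in edgeR's test from 0.0452 to 0.0892.

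HLA-E and HLA-F encode nonclassical molecules with little polymorphism, and HLA-E is known as a ligand of the NKG2A receptor on natural killer cells. HLA-E (ENSG00000204592, chr6:30457244-30461982) measured 314, 308 and 350.1 CPM with GST and 517, 492 and 533 CPM with GST-PTR1. Its libraries were tightly grouped in each treatment, with SDs of 22.9 and 21.0 CPM. HLA-E rose 1.59-fold, or 0.67 ± 0.11 on the log2 scale (estimate ± standard error, adjusted p = 0.00127 in edgeR's test), and the call held in all 6 fits that left out 1 library.

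HLA-F (ENSG00000204642, chr6:29690552-29706305), the least abundant heavy chain of the 4, measured 29.5, 35.0 and 35.5 CPM with GST and 49.9, 38.4 and 47.3 CPM with GST-PTR1. One GST-PTR1 library, that of 28837431 counts, lay only 2.94 CPM above the highest GST library. HLA-F rose 1.36-fold, or 0.44 ± 0.13 on the log2 scale (estimate ± standard error, adjusted p = 0.0357 in edgeR's test). Like that of HLA-C, its call was lost in 5 of the 6 fits without 1 library, with adjusted p in edgeR's test up to 0.101.

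Heavy chain genes resemble each other in sequence. Of the 50-base stretches in the transcripts of HLA-B, HLA-C, HLA-E and HLA-F, 2.12%, 6.17%, 5.13% and 1.25% also occurred in another gene. Of the 100-base stretches, 0%, 0.230%, 0.600% and 0% did. Reads that map to several places were left out of the counts, so how many were lost depends on the read length, which is not given in the sources used here. That loss, and any where alleles of RPMI8226 differ from the reference, was not tested.

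B2M (ENSG00000166710, chr15:45003675-45011075) encodes the light chain shared by all these heavy chains. It measured 2569, 3426 and 3205 CPM with GST and 4052, 3768 and 5045 CPM with GST-PTR1. These values did not overlap, but the SDs of 445 and 671 CPM were wide beside the gap of 342 CPM between the treatments. The log2 fold change was 0.48 (95% interval 0.13 to 0.84), and B2M was not called (adjusted p = 0.0548 in edgeR's test). It was called by limma voom (adjusted p = 0.0422) and by DESeq2's test (adjusted p = 0.0113) on the same counts. Those tests called 9.15% and 10.7% of all tested genes higher.

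The level of B2M moved across libraries with the summed level of 83 ribosomal protein genes, a set examined after its values were seen. This sum is given as a share of the TMM-scaled library size, not of all counts. That share was 3.19%, 3.79% and 3.88% with GST and 4.10%, 4.13% and 5.76% with GST-PTR1. The TMM factor was higher in every GST library than in any GST-PTR1 library. Part of the gap in this share between treatments therefore comes from the scaling. As a share of unscaled totals, the sum did not separate the treatments. There the GST library of 23453473 counts lay above the GST-PTR1 libraries of 22874133 and 28837431 counts. The separation of the treatments by the scaled share therefore depends on the scaling. The lowest and the highest B2M level fell in the libraries with the lowest and the highest share. Between these extremes B2M did not follow the share within a treatment. It went from 3426 to 3205 CPM between shares of 3.79% and 3.88% with GST. With GST-PTR1 it went from 4052 to 3768 CPM between shares of 4.10% and 4.13%. Both quantities are divided by the same scaled library size. The part of this share in the B2M result was not tested.

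TAP1 and TAP2 encode the subunits of the peptide transporter. TAP1 (ENSG00000168394, chr6:32812986-32821755) measured 190.2, 211 and 249 CPM with GST and 505, 438 and 459.8 CPM with GST-PTR1. The lowest GST-PTR1 library stood 189 CPM above the highest GST library. TAP1 rose 2.16-fold, with a standard error of 0.12 on the log2 scale and an adjusted p of 1.12e-04 in edgeR's test. Its log2 fold change stayed between 0.92 and 1.22 and was called under all 15 alternative settings.

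TAP2 (ENSG00000204267, chr6:32789610-32806557) measured 108.0, 100.1 and 113 CPM with GST and 161, 145 and 132 CPM with GST-PTR1. TAP2 rose 1.37-fold (adjusted p = 0.0138 in edgeR's test), with a 95% interval of 0.21 to 0.69 on the log2 scale that does not reach into the interval of TAP1 (0.83 to 1.38). An annotated gene on the same strand covers 32.3% of the exon bases of TAP2, and reads there were not counted for either gene, so its counts come from the rest. Its adjusted p was 0.0538 without the GST-PTR1 library of 22874133 counts and 0.0502 without that of 28837431 counts, both from edgeR's test.

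TAPBP (ENSG00000231925, chr6:33267471-33282164) measured 357, 329 and 363 CPM with GST and 436, 504 and 365 CPM with GST-PTR1. The GST-PTR1 library of 44688737 counts was level with the GST libraries and the other two were above them. The log2 fold change was 0.31 (95% interval 0.03 to 0.60) and TAPBP was not called (adjusted p = 0.108 in edgeR's test). Without the GST-PTR1 library of 44688737 counts the log2 fold change was 0.44 and TAPBP was called (adjusted p = 0.0240 in edgeR's test). With all 6 libraries it was also called, in the same test, under a filter of at least 1 count in any library (log2 fold change 0.34, adjusted p = 0.0421), with the trend in GC content removed (0.42, adjusted p = 0.0305) and with the trend in exon length removed (0.38, adjusted p = 0.0394).

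NLRC5 (ENSG00000140853, chr16:57023397-57117443) encodes the NLR family protein that acts as the transactivator of class I promoters. It measured 99.7, 73.4 and 88.1 CPM with GST and 150.1, 136 and 124 CPM with GST-PTR1. All GST-PTR1 libraries were higher by at least 24.0 CPM. NLRC5 rose 1.57-fold, or 0.65 ± 0.13 on the log2 scale (estimate ± standard error, adjusted p = 0.00500 in edgeR's test), and was called under all 15 alternative settings, with log2 fold changes from 0.45 to 0.76.

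**Figure D2:**
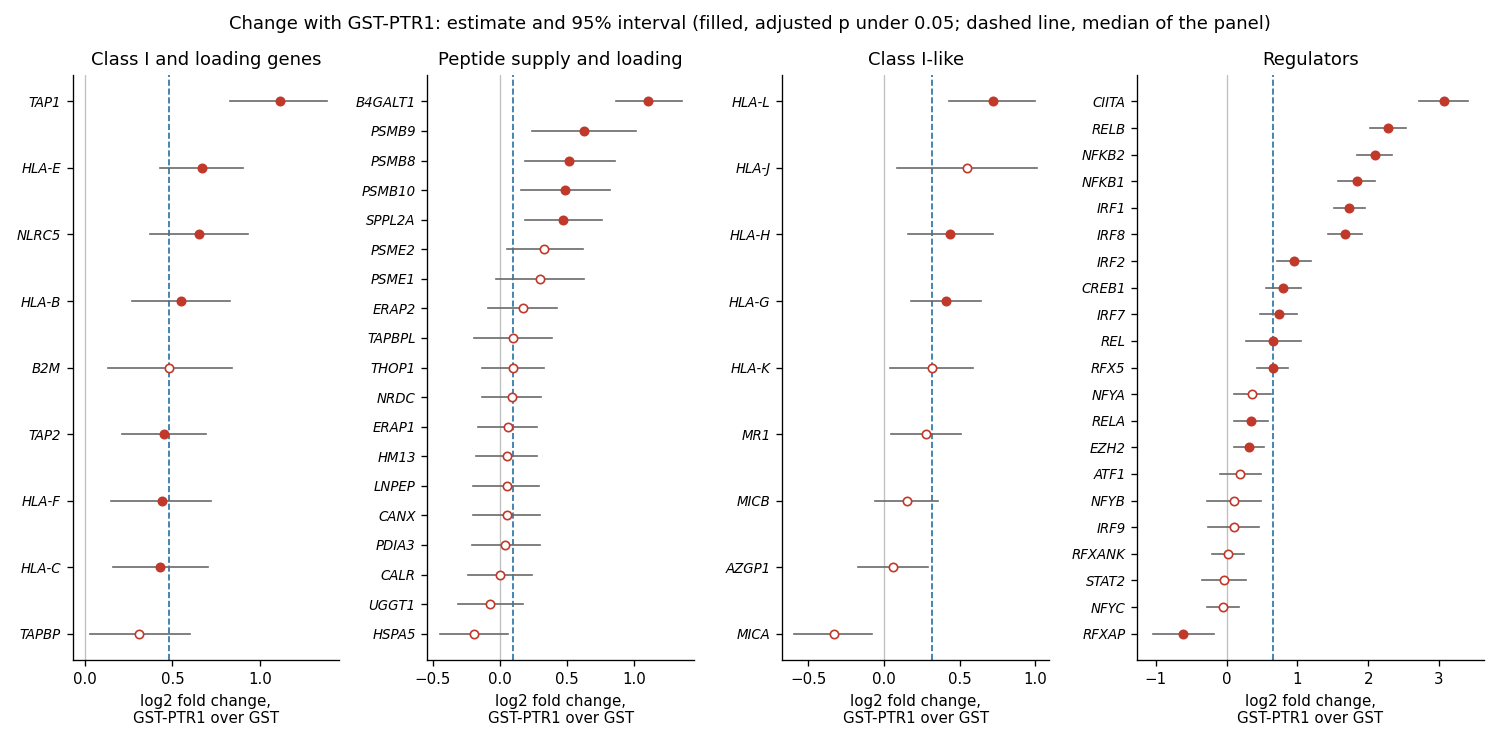
log2 fold change (x axis, GST-PTR1 over GST) with its 95% interval for the 9 genes and for the tested genes of the 3 related lists, filled where the adjusted p was under 0.05 and with the median of each panel as a dashed line. The 9 genes all lie to the right of 0 with a median of 0.48, most of the peptide supply genes lie near 0 (median 0.10), and the regulators spread up to 3.07 (CIITA).

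Together the 9 genes held 0.650%, 0.740% and 0.745% of all counts with GST and 0.943%, 0.822% and 0.913% with GST-PTR1. Levels of different genes can be compared only per length of exon, as RPKM (counts divided by exon length in kilobases and by the unscaled library total). With GST the order by mean RPKM was B2M (1040 ± 131), HLA-B (598 ± 27.9), HLA-C (336 ± 25.2), HLA-E (117 ± 8.24), TAPBP (74.1 ± 4.90), TAP1 (48.9 ± 6.24), TAP2 (17.9 ± 1.27), HLA-F (7.60 ± 0.621) and NLRC5 (7.54 ± 1.29; SD, n = 3 for each). B2M was above 99.8% of all tested genes and HLA-B above 99.6% on this scale, whereas HLA-F and NLRC5 were near 62.0% and 61.8%. Neighbours in this order did not overlap between libraries, except HLA-F and NLRC5, whose ranges overlapped. For TAP2 the full exon length was used, although reads on 32.3% of its exon bases were not counted. Its RPKM is therefore understated under both treatments.

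The order with GST-PTR1 differed in 2 places. TAP1 averaged 92.3 ± 10.0 RPKM and TAPBP 80.7 ± 15.6 RPKM, so that TAP1 came before TAPBP, although their libraries overlapped. NLRC5 (10.3 ± 1.5 RPKM) came before HLA-F (9.02 ± 1.31 RPKM), again with overlapping libraries. The heavy chain order of HLA-B, HLA-C, HLA-E and HLA-F was the same under both treatments.

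**Figure D3:**
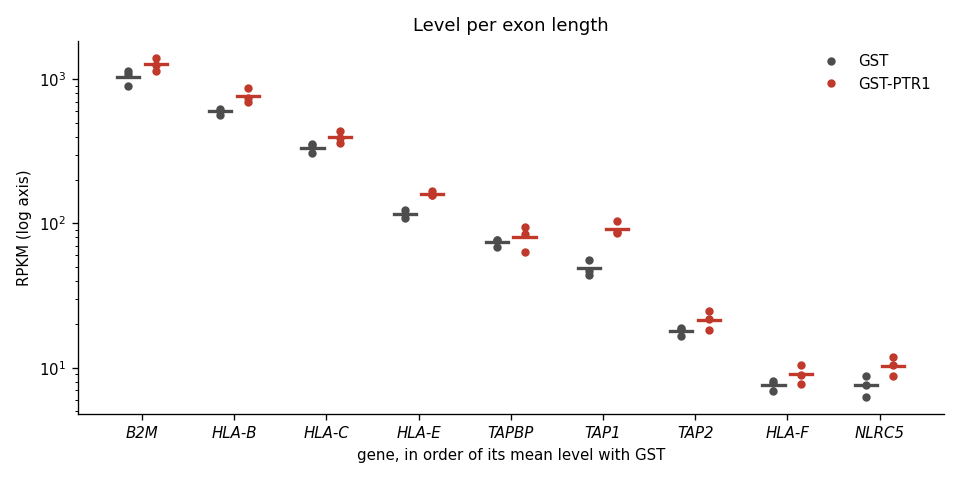
RPKM of the 9 genes (log axis) in the 3 libraries of each treatment (points) with the mean as a bar, ordered by the mean with GST. Levels run from 1040 RPKM for B2M to 7.54 RPKM for NLRC5 with GST, and TAP1 moves from below TAPBP (48.9 against 74.1) to a mean above it with GST-PTR1 (92.3 against 80.7).

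To ask whether members changed to a different extent, ratios of counts were taken within each library, which no scaling between libraries can alter. For 11 ratios, treatments were compared on the log2 scale by a two-sided exact permutation test, where 3 libraries against 3 cannot go below p = 0.1 and no ratio could therefore be called. TAP1 over TAP2 was 1.77, 2.11 and 2.20 with GST and 3.14, 3.02 and 3.48 with GST-PTR1, a log2 difference of 0.67 with no overlap (exact permutation p = 0.1, adjusted p = 0.275 over the 11 ratios). TAP1 over TAPBP was 0.533, 0.642 and 0.686 with GST and 1.16, 0.870 and 1.26 with GST-PTR1, a log2 difference of 0.81, also without overlap and with the same p. Both ratios were higher in all 3 libraries with GST-PTR1 than in any with GST.

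Ratios of the heavy chains to the light chain overlapped between treatments. HLA-B over B2M was 0.609, 0.502 and 0.551 with GST and 0.660, 0.586 and 0.501 with GST-PTR1, a log2 difference of 0.07 with overlapping libraries (exact permutation p = 0.8). Ratios to B2M differed by -0.05 for HLA-C, 0.18 for HLA-E and -0.05 for HLA-F on the log2 scale, and all overlapped between treatments (exact permutation p = 0.7, 0.3 and 0.7). With 3 libraries each, differences of this size could not have been called. HLA-B over HLA-C was 2.22, 2.07 and 2.12 with GST and 2.37, 2.33 and 2.28 with GST-PTR1, a small shift of 0.12 on the log2 scale without overlap (exact permutation p = 0.1, adjusted p = 0.275). HLA-B over HLA-E differed by -0.12 and overlapped (exact permutation p = 0.3).

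NLRC5 and CIITA encode related NLR transactivators, of class I and of class II genes. NLRC5 over CIITA was 3.76, 4.07 and 4.63 with GST and 0.886, 0.690 and 0.748 with GST-PTR1, so the gene with more counts changed from NLRC5 to CIITA. This log2 difference of -2.42 (exact permutation p = 0.1, adjusted p = 0.275) had no overlap. Of the other ratios, TAP1 over the immunoproteasome subunit PSMB9, its neighbour on chromosome 6, differed by 0.48 with overlap (exact permutation p = 0.2), and PSMB8 over PSMB9 by -0.10 with overlap (exact permutation p = 0.4).

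**Figure D4:**
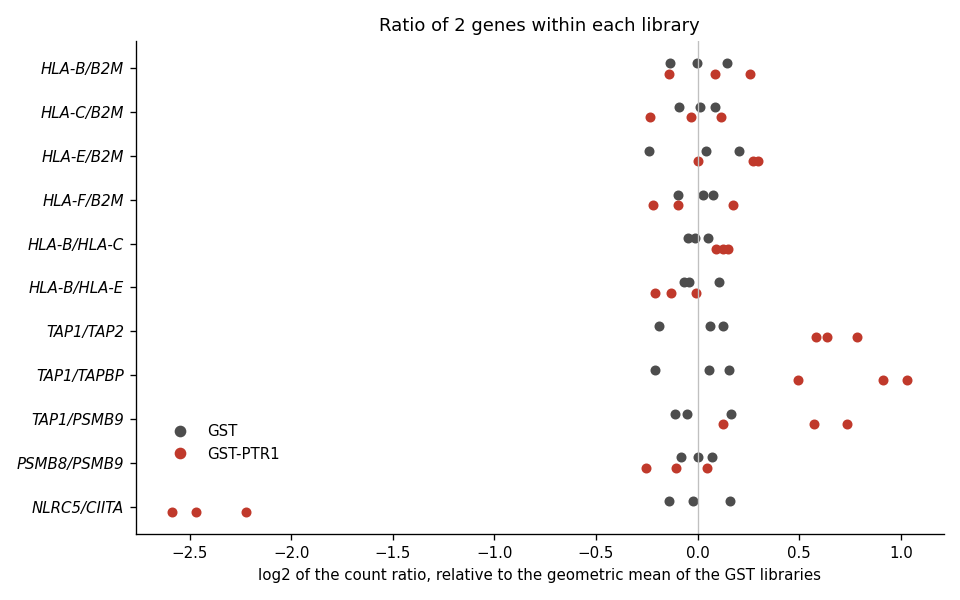
log2 of 11 within-library count ratios relative to the geometric mean of the GST libraries (x axis), 1 point for each of 6 libraries. The heavy chain to B2M ratios mix the treatments, TAP1/TAP2 and TAP1/TAPBP lie to the right in every GST-PTR1 library (differences of 0.67 and 0.81), and NLRC5/CIITA lies far to the left (-2.42).

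A list of 19 genes was taken, mostly those that cut, trim, fold or load the peptides, and all passed the filter. The list also holds B4GALT1, which does none of these. With GST-PTR1, 5 were called higher and none was called lower, beside 9.15% and 11.4% of all tested genes, with a median log2 fold change of 0.10. All 3 immunoproteasome subunits rose: PSMB9 from 73.4 ± 16.5 to 114 ± 23.7 CPM, PSMB8 from 90.4 ± 17.7 to 130.1 ± 16.9 CPM and PSMB10 from 20.6 ± 3.61 to 29 ± 3.54 CPM (SD, n = 3 each). Their log2 fold changes were 0.63, 0.52 and 0.49 (adjusted p = 0.0302, 0.0325 and 0.0398 in edgeR's test). On unscaled library totals the log2 fold changes of the 3 were 0.43, 0.33 and 0.29 and none was called. For PSMB10, 34.8% of the exon bases also belong to a gene that overlaps it on the same strand. The galactosyltransferase B4GALT1 rose from 83.1 ± 9.94 to 180 ± 9.80 CPM (log2 fold change 1.11, adjusted p = 4.90e-05 in edgeR's test), and the intramembrane protease SPPL2A from 58.8 ± 4.16 to 81.5 ± 13.6 CPM (log2 fold change 0.47, adjusted p = 0.0260 in edgeR's test). On unscaled library totals SPPL2A was at 0.27 and not called (adjusted p = 0.113 in edgeR's test), while B4GALT1 was called. B4GALT1 acts on glycans in the Golgi and is not particular to class I molecules.

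The other 14 genes of that list were not called. The proteasome activator subunits PSME1 and PSME2 had log2 fold changes of 0.30 and 0.33 (adjusted p = 0.179 and 0.0931 in edgeR's test). The trimming peptidases ERAP1 and ERAP2 had values of 0.06 and 0.17. Chaperones of the loading complex were near 0, with a log2 fold change of 0.05 (95% interval -0.20 to 0.30) for CANX, 0.04 (-0.21 to 0.30) for PDIA3 and -0.00 (-0.24 to 0.24) for CALR. The lowest value of the list was -0.19 for HSPA5, the endoplasmic reticulum chaperone BiP. HSPA5 was called lower on unscaled library totals (-0.39, adjusted p = 0.0330 in edgeR's test), as were 22.4% of all tested genes. This list's count rested on single libraries. In the fit that omitted the GST library of 15202503 counts, 1 gene was called higher, as in the fit that omitted the GST-PTR1 library of 44688737 counts. Omitting the GST library of 20077280 counts left 2 and omitting the GST-PTR1 library of 22874133 counts left 3. In the order named, these fits called 7.84%, 7.13%, 7.84% and 8.82% of all tested genes higher.

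Of 17 further genes with the class I fold or descended from class I genes, 9 passed the filter, and the CD1 genes, HFE, FCGRT and PROCR did not. With GST-PTR1, 3 of the 9 were called higher and none lower, again beside 9.15% and 11.4% of all tested genes, with a median log2 fold change of 0.32. These were HLA-G (48.3 ± 1.70 to 64.2 ± 6.21 CPM, log2 fold change 0.41) and the pseudogenes HLA-H (459 ± 52.7 to 622 ± 61.1 CPM, log2 fold change 0.44) and HLA-L (19.4 ± 2.57 to 31.8 ± 2.68 CPM, log2 fold change 0.72; SD, n = 3 each). HLA-G and HLA-H resemble other class I genes, and reads that map to several places were left out of the counts, so these values are uncertain. How many reads they lost was not tested. The stress ligand MICA, which NKG2D recognises, had a log2 fold change of -0.33 (adjusted p = 0.0619 in edgeR's test) and its relative MICB one of 0.15 (adjusted p = 0.293 in the same test). All 3 GST-PTR1 libraries lay below the GST libraries for MICA, which was called lower on unscaled library totals (-0.53, adjusted p = 0.00750 in edgeR's test), where MICB was at -0.05. That scale gave lower calls for 22.4% of all tested genes and a median log2 fold change of -0.19. On those totals HLA-G (0.21) and HLA-H (0.24) were not called. Omitting the GST library of 23453473 counts left 1 called gene in this list, and so did omitting the GST-PTR1 library of 22874133 counts. In those fits 6.09% and 8.82% of all tested genes were called higher.

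Factors that act on class I promoters formed a list of 21, all tested, of which 13 were called higher and 1 lower (9.15% and 11.4% of all tested genes), with a median log2 fold change of 0.65. This list, like the other lists, was chosen with earlier results of these data known. The shares of all tested genes are given for reference and test nothing. CIITA, the class II counterpart of NLRC5, had the highest value, with 21.2 ± 4.64 CPM under GST and 177 ± 17.2 CPM under GST-PTR1 (log2 fold change 3.07; SD, n = 3 each). All 5 NF-κB subunit genes rose, with log2 fold changes of 2.28 for RELB, 2.09 for NFKB2, 1.84 for NFKB1, 0.66 for REL and 0.35 for RELA. On unscaled library totals REL (0.46) and RELA (0.15) were not called, and the other 3 were. An overlapping gene on the same strand covers 50.7% of the exon bases of REL. Among interferon regulatory factors, IRF1 rose from 77.3 ± 5.45 to 257 ± 9.30 CPM (log2 fold change 1.73, adjusted p = 6.97e-07 in edgeR's test) and IRF8 from 47.3 ± 4.65 to 151 ± 9.42 CPM (log2 fold change 1.67, adjusted p = 1.63e-06 in edgeR's test; SD, n = 3 each). IRF2 and IRF7 rose by log2 fold changes of 0.95 and 0.74, while IRF9 (0.10) was not called. For IRF9, 48.4% of the exon bases also belong to a gene that overlaps it on the same strand. STAT2, an interferon signal transducer, had a log2 fold change of -0.04 (adjusted p = 0.869 in edgeR's test).

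The partners of NLRC5 on the promoter moved unequally. RFX5 rose from 150.3 ± 6.98 to 236 ± 11 CPM (log2 fold change 0.65), RFXANK had a log2 fold change of 0.02, and RFXAP fell from 6.60 ± 0.421 to 4.37 ± 1.11 CPM (log2 fold change -0.61, adjusted p = 0.0468 in edgeR's test; SD, n = 3 each). The RFXAP call was lost in 4 of the 6 fits without 1 library. CREB1 rose with a log2 fold change of 0.80, and ATF1 (0.19) was not called. Of the NF-Y subunits NFYA (0.36), NFYB (0.10) and NFYC (-0.05), none was called. EZH2, the histone methyltransferase known to hold class I genes down in some tumors, rose with a log2 fold change of 0.32 (adjusted p = 0.0376 in edgeR's test), but was not called on unscaled library totals (0.12).

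All members but B2M and NLRC5 lie on chromosome 6, within the MHC, and the nearest tested gene on each side of every member was examined. Of 18 such neighbours, 5 were called higher, 2 lower and 11 neither, beside 9.15% and 11.4% of all tested genes, with a median log2 fold change of 0.16. Those called higher were PSMB8 beside TAP2, PSMB9, which overlaps TAP1 on the other strand, HLA-DMB above TAP1, HLA-V beside HLA-F, and TRIM69 beside B2M on chromosome 15. HLA-DMB, a class II peptide exchange subunit, had the highest log2 fold change (1.87), followed by the pseudogene HLA-V (0.66) and TRIM69, a RING-type protein (0.64). Those called lower were HCG27, a noncoding gene beside HLA-C (-1.23), and RGL2, a Ral exchange factor gene 370 bases from TAPBP (-0.81). Both genes next to NLRC5 on chromosome 16 stayed uncalled, with log2 fold changes of 0.04 for CETP and -0.15 for CPNE2. ENSG00000271581, which overlaps HLA-B on the other strand, had a log2 fold change of 0.14 (adjusted p = 0.842 in edgeR's test). The pseudogene RPL3P2, 72353 bases from HLA-B, had a log2 fold change of 0.24 (adjusted p = 0.208 in edgeR's test).

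Across the 6 libraries, log2 CPM values of the 36 pairs of members had Pearson's r between 0.273 (B2M with TAPBP) and 0.991 (HLA-C with HLA-F), with a median of 0.879. Since the treatments separate every member, these coefficients describe both the treatment and the spread within it. Among 9608 other genes with a mean of at least 10 CPM, those closest to the members' mean standardized log2 CPM were LAMP3 (r = 0.9964), HLA-W (r = 0.9962) and SMS (r = 0.9959). LAMP3 encodes a lysosomal membrane protein and went from 30.7, 30.4 and 38.4 CPM to 86.2, 68.0 and 69.5 CPM. HLA-W is a class I pseudogene, at 17.3, 18.5 and 20.5 CPM with GST and 41.6, 32.1 and 37.6 CPM with GST-PTR1. SMS, the spermine synthase gene, went from 72.5, 78.5 and 83.9 CPM to 118, 110.1 and 114 CPM. With 6 libraries in 2 separated groups such likeness is common, and 422 genes had r of 0.95 or more.

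The calls depended on how libraries were put on a common scale and on which libraries entered. On unscaled library totals, 3 of the 9 genes were called higher (HLA-E, TAP1 and NLRC5), the median log2 fold change of the 9 was 0.28 beside -0.19 for all tested genes, and 5.48% of all tested genes were called higher. All 9 genes were called under a filter of at least 1 count in any library (8.25% of all tested genes called higher). All 9 were also called with the trend in GC content removed (11.8%) and with the trend in exon length removed (11.8%). DESeq2's test (10.7%) and limma voom (9.15%) called 8 of the 9, TAPBP aside. All 9 log2 fold changes stayed above 0 under each of the 15 alternative settings. Leaving out 1 library gave between 4 and 6 called members. In these fits, in the order of the library left out, 7.84%, 7.84% and 6.09% of all tested genes were called higher without a GST library and 8.82%, 6.38% and 7.13% without a GST-PTR1 library. HLA-B, HLA-E, TAP1 and NLRC5 were called in all 6 of these fits, TAP2 in 4, HLA-C, HLA-F and TAPBP in 1 each, and B2M in 0. Without the GST-PTR1 library of 22874133 counts the number of called members was 4.

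**Figure D5:**
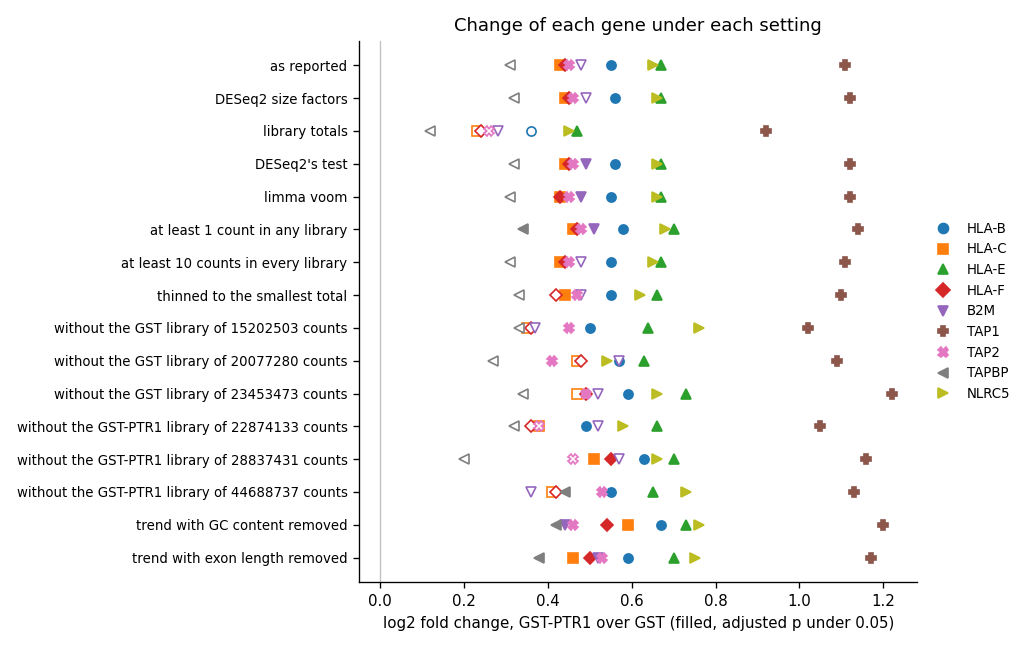
log2 fold change (x axis) of the 9 genes as reported and under 15 alternative settings (rows), filled where the adjusted p was under 0.05. TAP1 stays between 0.92 and 1.22, TAPBP gives the lowest value (0.12, on library totals), and no symbol lies left of 0.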

How the data were processed

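RNA from RPMI8226 cells under 2 treatments, with 3 biological replicates each, was sequenced from strand-specific mRNA libraries. The deposited table holds raw counts for each gene and exon lengths, with no normalization. The authors made the counts with featureCounts 1.5.0-p1 on the reverse strand from Ensembl release 75 (GRCh37), leaving out multi-mapping reads and reads in the shared exons of overlapping genes. Per the labels, the submitters' processing notes also name Subread and limma. Columns were assigned to treatments by their names. Within a treatment every pair of libraries differed by more than sampling noise, with a chi-square per gene of at least 7.66.

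Differences were tested on the deposited counts with edgeR 4.0.16 in R 4.3.3 (TMM, filterByExpr, glmQLFit, glmQLFTest, Benjamini-Hochberg adjustment over 16926 genes). The edgeR fit was tested on simulated counts. These held no broad shift between treatments, so they do not bear on the choice of scaling. CPM and RPKM were computed from the counts, and log2 CPM with a prior count of 2. Alternatives used DESeq2 1.42.0, limma 3.58.1 voom, other scalings and filters, thinning to the smallest total, and leaving out each library. Ensembl identifiers of 39699 genes were paired with a symbol. Shared 50-base stretches were counted in GENCODE 29 transcripts. No coordinates were converted between builds. The 9 members and the 3 gene lists were chosen with earlier results of these data known. The regulator list is counted without 1 further gene that is not reported here. The named genes are the members, genes of the lists (those called with the largest and smallest changes first), the nearest tested neighbours, the genes of the ratios and the 3 genes most like the members. The promoter search, the levels and the ribosomal protein share carry no test.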

Additional observations from a re-analysis of the deposited data

How the results depend on the processing

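Across 15 alternative settings no log2 fold change of the 9 genes changed sign. HLA-E, TAP1 and NLRC5 were called under all of them. HLA-B lost its call on unscaled library totals (adjusted p = 0.0509 in edgeR's test), and thinning to the smallest total ended that of HLA-F (0.0538). All 9 members were called with a filter of at least 1 count in any library and with the trend in GC content or exon length removed. Those settings called 8.25%, 11.8% and 11.8% of all tested genes higher. DESeq2's test and limma voom called 8 members, beside 10.7% and 9.15% of all tested genes. On library totals, 3 members, 1 gene of the peptide supply list (B4GALT1) and 1 class I-like gene were called higher. On the same totals, 1 gene of each of those 2 lists was called lower. Over all tested genes that scale gave 927 higher (5.48%) and 3795 lower calls (22.4%) beside 1549 and 1937, with a median of -0.19. A filter of at least 1 count in any library gave 2608 higher calls. With the trend in GC content removed, an alternative chosen after seeing the data, 5 class I-like genes were called higher, beside 11.8% of all tested genes. With the trend in exon length removed, likewise chosen afterwards, 1 was called lower, beside 11.3% of all tested genes. After thinning, 0 regulators were called lower. The cause was not tested. Without 1 library, calls higher ranged from 4 to 6 for the members, 1 to 4 for peptide supply, 1 to 3 for class I-like genes and 10 to 13 for regulators, regulators called lower from 0 to 1, and ratios without overlap from 4 to 7 of 11 (7 without the GST-PTR1 library of 22874133 counts). Over all tested genes, these fits called 6.09% to 8.82% higher, and lower calls ranged from 1178 to 1818 (6.77% to 10.5%). The log2 differences of ratios to B2M that changed sign ranged from -0.03 to 0.17 for HLA-B, from -0.13 to 0.04 for HLA-C and from -0.16 to 0.04 for HLA-F. The numbers in the column names are not the replicate numbers of the labels, and 2 of them occur in both treatments. Deviations from the treatment means correlated at -0.0276 and 0.253 between libraries that share one, and from -0.469 to 0.365 between those that do not. With 3 libraries per treatment these values cannot show whether the libraries are paired. The main fit does not pair them. With that number as a replicate block, a fit chosen after seeing the data with 1 residual degree of freedom, 3 members (HLA-E, TAP1 and NLRC5), 3 peptide supply genes, 2 class I-like genes and 12 regulators were called higher and 1 regulator lower, beside 9.26% and 9.93% of all tested genes, and no member changed sign.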
